A study of Mus musculus with 12 samples.

Results

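Steroid hormone synthesis in ovary and adrenal was followed through 10 genes: Star, Cyp11a1, Hsd3b1, Cyp17a1, Cyp19a1, Cyp11b1, Cyp21a1, Nr5a1, Lhcgr and Fshr. They were taken as all probe sets whose array annotation gives one of these symbols, and 8 of the 10 genes were found, with 14 of the 34958 probe sets that name a single gene. The measured genes are thus 8 of 18194 genes. Cyp19a1 and Lhcgr are not analysed here. The tissue was not a steroid gland but abdominal fat pads of female mice on the C57BL/6 background. The mice were wild type, or null for p47phox (labelled P47KO), the NADPH oxidase subunit encoded by Ncf1. Both genotypes were given either casein or a high fat diet, starting at postnatal day 28 and lasting 13 weeks, so that genotype and diet cross to form 4 groups. Each group has 3 arrays, each of 1 pool, and all 12 arrays are used. How many animals were pooled is not stated, so the p-values measure the spread between pools, which may be technical.

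Steroid hormones are made from cholesterol. Star carries cholesterol to the inner mitochondrial membrane, Cyp11a1 cleaves its side chain to give pregnenolone, and Hsd3b1 turns pregnenolone into progesterone. From there Cyp17a1 leads to androgens, Cyp19a1 to oestrogens, and Cyp21a1 and Cyp11b1 to the adrenal corticosteroids. Nr5a1 is a nuclear receptor that activates many of these genes in ovary and adrenal, and Fshr and Lhcgr are the gonadotropin receptors of the ovary. The first steps are shared by both glands, whereas Cyp21a1 and Cyp11b1 mark the adrenal cortex and Fshr the granulosa cells that surround the oocyte.

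The promoters of Hsd3b1 and Cyp11a1 are shown because these were the genes called between genotypes on the high fat diet, and because the Hsd3b1 probe set and 1 of the 3 Cyp11a1 probe sets had the same low pools. The RefSeq promoter table (GRCm38.p6) held windows for 3 of the 8 measured genes (Cyp11a1, Hsd3b1 and Fshr), 4 windows in all. The 250 bases before each start are given 5′ to 3′ on the gene's strand, and capitals mark a match to TCAAGG, the core of the half-site that NR5A1 is known to bind, or to AGGTCA, the general nuclear receptor half-site, on either strand. The motifs were searched separately and no match overlapped another.
Cyp11a1, upstream start, chr9:57997774-57998023, plus strand: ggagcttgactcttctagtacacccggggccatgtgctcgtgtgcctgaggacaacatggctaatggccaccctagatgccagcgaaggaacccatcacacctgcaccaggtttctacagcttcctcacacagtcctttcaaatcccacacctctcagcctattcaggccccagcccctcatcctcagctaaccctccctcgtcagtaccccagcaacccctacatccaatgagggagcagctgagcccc
Cyp11a1, downstream start, chr9:58014702-58014951, plus strand: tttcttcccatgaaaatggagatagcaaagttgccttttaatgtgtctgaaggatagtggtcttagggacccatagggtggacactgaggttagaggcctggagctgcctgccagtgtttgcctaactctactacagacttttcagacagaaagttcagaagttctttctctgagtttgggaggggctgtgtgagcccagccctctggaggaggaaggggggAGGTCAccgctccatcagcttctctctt
Hsd3b1, chr3:98859795-98860044, minus strand: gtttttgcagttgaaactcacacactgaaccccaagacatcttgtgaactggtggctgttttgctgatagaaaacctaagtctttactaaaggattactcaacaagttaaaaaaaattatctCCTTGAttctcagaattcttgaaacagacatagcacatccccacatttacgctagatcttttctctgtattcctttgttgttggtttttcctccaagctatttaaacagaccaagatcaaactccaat
The downstream Cyp11a1 window held AGGTCA 28 bases before the start, and the Hsd3b1 window held CCTTGA 128 bases before it, which is TCAAGG read on the other strand. The upstream Cyp11a1 window held neither, and the Fshr window, not printed, held TCAAGG 226 bases before its start. Of all 32851 windows of this length, 12.5% held TCAAGG and 14.0% held AGGTCA on some strand, so such matches are common and describe letters only.

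All values are log2 and relative: each probe set was deposited centred on its own median over the 12 arrays, so 0 is the middle array, levels and background are lost, and no gene can be ranked above another. The typical probe set spanned 0.56 from its lowest to its highest array. The probe sets of Ncf1 were checked first. Its probe set 1456772_at lay between 0.33 and 1.71 in the wild type pools and between -0.54 and -0.33 in the null pools, so these groups did not overlap, and 1451767_at was likewise separated (0.16 to 0.83 against -0.27 to -0.16). The third, 1425609_at, overlapped (-0.27 to 0.26 against -0.15 to 0.03). The adipocyte markers, the check of the labelled tissue, had pool medians of only -0.54 to 0.26, but with no levels their presence cannot be read.

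Several pools stood apart in markers of other tissues. Adrenal marker medians were highest in the pool with the high adrenal enzymes, and granulosa markers were low in the pools with low Hsd3b1 and in 1 more. Wild type casein pool 3 had a median of 1.37 over the 3 measured adrenal cortex markers (0.17 to 2.84), against medians of -0.35 to 0.21 in the other 11 pools. Only 2 of these 3 markers were above 1 in that pool. Whether the signal of these 3 genes came from adrenal cells or from the fat itself was not tested. It also had 1.75 over the 6 adrenal medulla markers (others -0.09 to 0.10) and 4.41 over the 7 liver markers. Over the 8 granulosa markers, all 3 wild type high fat diet pools together with wild type casein pools 2 and 3 had medians between -1.09 and -0.83, and the other 7 pools between -0.10 and 0.97. The inhibin subunit gene Inha, a granulosa product, was low in the same 5 pools: it lay at -5.68 in wild type casein pool 2, at -5.04 in pool 3 of that group and from -5.78 to -5.27 on the high fat diet in the wild type. Every other pool lay between -0.15 and 1.89. Kidney markers had a median of 1.57 in null casein pool 3 and -0.07 to 0.14 in the others, though null high fat diet pool 3 held 3.41 for Kap and 1.65 for Umod, both kidney genes. Skeletal muscle markers did not follow the steroid genes: they were highest in wild type high fat diet pool 2 (4.62), null high fat diet pool 1 (3.81) and wild type casein pool 1 (3.09), where Hsd3b1 read -8.86, 0.16 and -0.18. The part of these tissues in the results was not tested. In pooled bulk tissue, fewer cells of a type and less RNA per cell cannot be told apart.

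**Figure D1:**
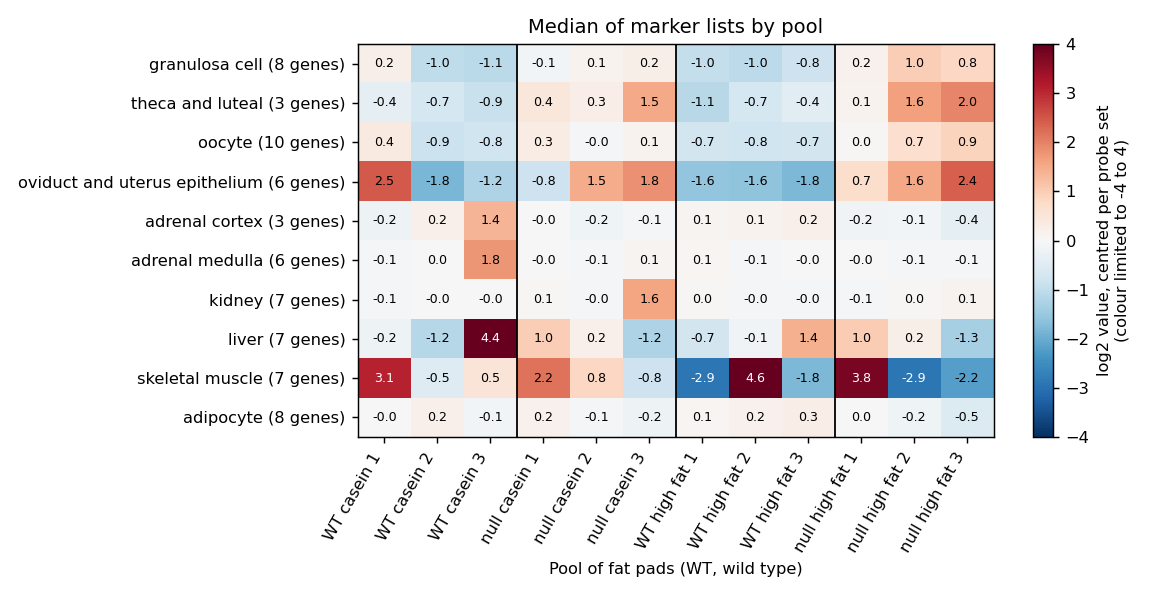
Heat map of the median deposited value (log2, relative to each probe set's own median, printed in each cell) of 10 marker lists, in rows, over the 12 pools, in columns ordered by group; red is high, blue is low and the colour is capped. Granulosa medians are low in wild type casein pools 2 and 3 and in all 3 wild type high fat diet pools. Adrenal cortex and medulla medians are highest in wild type casein pool 3.

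Hsd3b1 moved most of the steroid genes. Its probe set 1448453_at read -0.18, -8.11 and 1.14 in the wild type casein pools, 0.35, 0.05 and -0.05 in the null casein pools, -6.16, -8.86 and -8.16 in the wild type high fat diet pools, against 0.16, 0.65 and 0.78 in the null high fat diet pools. The 4 low pools were thus the 3 wild type high fat diet pools and wild type casein pool 2, and the other 8 pools formed a narrow group near 0. The group order was null on the high fat diet (0.53 ± 0.33, SD, n = 3), null on casein (0.12 ± 0.21), wild type on casein (-2.39 ± 5.0) and wild type on the high fat diet (-7.73 ± 1.40). No difference between neighbours in that order passed the limma test.

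Cyp11a1, the enzyme just before it, had the same low pools on 1 of its 3 probe sets. On 1448804_at it read -0.06, -6.59 and 0.03 in the wild type casein pools, 0.59, 0.45 and 0.73 in the null casein pools, -6.15, -6.65 and -6.80 in the wild type high fat diet pools, against -0.03, 1.09 and 1.85 in the null high fat diet pools. Wild type casein pool 2 and the wild type high fat diet pools were low again, at -6.80 to -6.15. The other 2 probe sets were nearly flat: 1439947_at stayed between -0.24 and 0.53, and 1457604_x_at between -0.22 and 0.18. Probe sets were averaged to give 1 value per gene, so the flat ones shrink the differences of Cyp11a1 and its order of groups: null on the high fat diet (0.32 ± 0.35), null on casein (0.27 ± 0.12), wild type on casein (-0.72 ± 1.29), then wild type on the high fat diet (-2.24 ± 0.14).

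Star, which feeds cholesterol to Cyp11a1, had the same low pools and a high one besides. Its probe set 1418728_at read -1.29, -3.41 and 4.39 in the wild type casein pools, 1.21, -0.06 and 0.06 in the null casein pools, -2.77, -3.14 and -4.09 in the wild type high fat diet pools, against 0.53, 0.14 and 1.15 in the null high fat diet pools. Wild type casein pool 3 stood above every other pool on all 3 Star probe sets, at 3.93 and 4.57 on 1418729_at and 1449201_at. The highest of the other 11 pools was 1.18 and 2.16 on those probe sets. The mean over the 3 probe sets was 0.45 ± 3.38 in wild type on casein, 0.49 ± 0.79 in null on casein, -2.19 ± 0.42 on the high fat diet in the wild type and 0.67 ± 0.53 on it in the null.

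Cyp17a1, which opens the androgen branch, was lowest in the 4 low pools of Hsd3b1 but divided the other pools in another way. Its probe set 1417017_at read 2.09, -1.93 and -0.94 in the wild type casein pools, -1.37, 3.45 and 3.75 in the null casein pools, -1.73, -2.19 and -2.21 in the wild type high fat diet pools, against 0.94, 3.52 and 3.37 in the null high fat diet pools. Null casein pool 1 was the next lowest here, although its Hsd3b1 value of 0.35 was among the high ones. The oviduct and uterus markers were low in the same pool, with a median of -0.84 against 1.47 and 1.82 in null casein pools 2 and 3. For the theca and luteal markers the median was 0.45 in that pool, against 0.28 and 1.51. For the granulosa markers it was -0.10 against 0.13 and 0.22. The part of any of these cells in the Cyp17a1 values was not tested. Wild type casein pool 3 was likewise high for Hsd3b1 but below 0 for Cyp17a1.

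**Figure D2:**
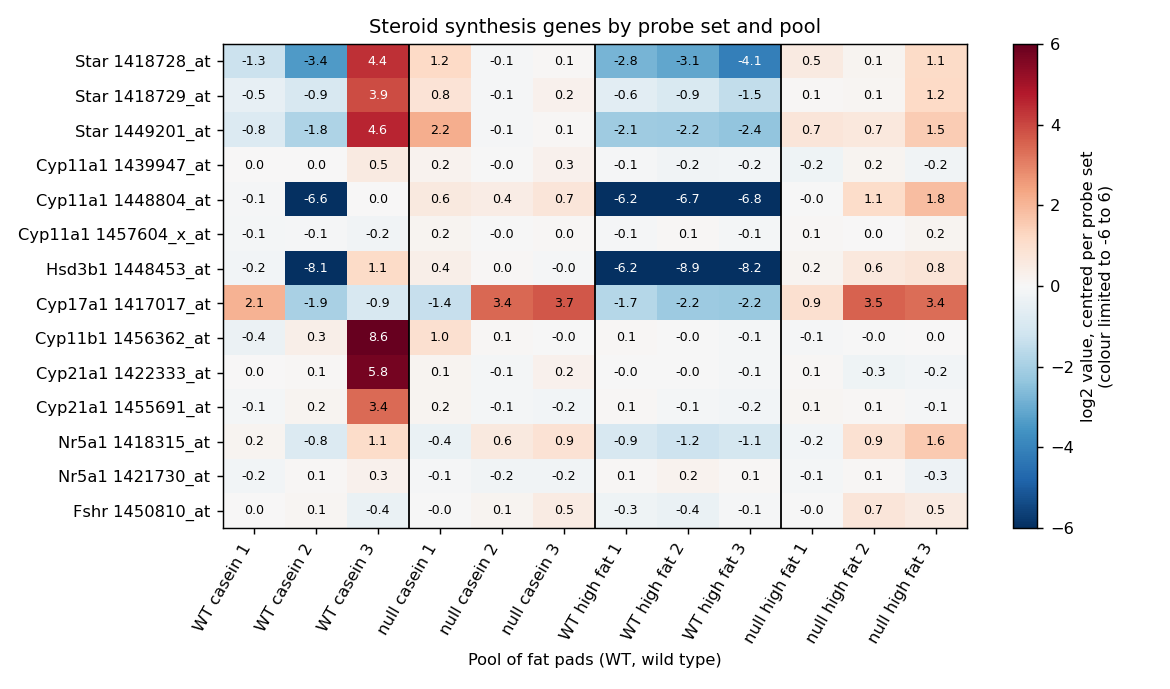
Heat map of the deposited value (log2, relative to each probe set's own median, printed in each cell) of the 14 probe sets of the steroid synthesis genes, in rows, over the 12 pools, in columns; red is high, blue is low and the colour is capped. Wild type casein pool 2 and the 3 wild type high fat diet pools are low for Hsd3b1, Cyp11a1 (1448804_at), Star and Cyp17a1. Wild type casein pool 3 alone is high for both Cyp11b1 and Cyp21a1, and Cyp11b1 is at 0.95 in null casein pool 1.

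The adrenal enzymes were raised together in a single pool, wild type casein pool 3, while null casein pool 1 had a smaller rise (0.95) in Cyp11b1 only. Cyp11b1, the last enzyme of corticosterone synthesis, read -0.36, 0.34 and 8.56 in the wild type casein pools on 1456362_at, 0.95, 0.07 and -0.01 in the null casein pools, 0.07, -0.02 and -0.11 in the wild type high fat diet pools, against -0.06, -0.04 and 0.01 in the null high fat diet pools. Cyp21a1, the enzyme before it, read 5.76 in wild type casein pool 3 on 1422333_at and 3.41 on 1455691_at, and between -0.25 and 0.25 in the other 11 pools over both. The pool with the high adrenal enzymes is thus also the one with the highest adrenal cortex and medulla marker medians. The SD of its group was 4.96 for Cyp11b1 against 0.04 to 0.53 in the other groups. In wild type casein pool 3 Inha was at -5.04, and the 8 granulosa markers had a median of -1.09. The 3 theca and luteal markers ran from -1.56 to 4.66 there, with a median of -0.88. Which cells the high Star value of that pool came from was not tested.

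The regulator and the receptor moved less. Nr5a1 read 0.17, -0.84 and 1.09 in the wild type casein pools on 1418315_at, -0.40, 0.57 and 0.88 in the null casein pools, -0.94, -1.22 and -1.06 in the wild type high fat diet pools, against -0.17, 0.91 and 1.56 in the null high fat diet pools. The wild type high fat diet pools were the 3 lowest, followed by wild type casein pool 2. Its second probe set, 1421730_at, stayed between -0.32 and 0.26. Fshr, the follicle stimulating hormone receptor, read 0.02, 0.11 and -0.42 in the wild type casein pools on 1450810_at, -0.02, 0.15 and 0.51 in the null casein pools, -0.25, -0.40 and -0.08 in the wild type high fat diet pools, against -0.04, 0.71 and 0.53 in the null high fat diet pools. Its lowest pool was wild type casein pool 3, the pool with the highest Cyp11b1.

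Comparing the genotypes on the high fat diet, Hsd3b1 and Cyp11a1 were higher in the null pools, and these were the 2 of 8 genes called by limma at an adjusted p below 0.05 (Benjamini-Hochberg over 18194 genes, 4 group means on all 12 arrays). Of all genes, 5.92% were called, and 3.21% were called higher in the null. Hsd3b1 was higher by 8.26 ± 1.86 (SE; adjusted p = 0.0345), a 306-fold difference. Cyp11a1 was higher by 2.56 ± 0.48 (adjusted p = 0.0242) as the mean of its probe sets. On 1448804_at alone the difference was 7.51 ± 1.37, or 182-fold (adjusted p = 0.0224 over 34958 probe sets).

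The other genes did not pass. Cyp17a1 differed by 4.65 ± 1.37 (adjusted p = 0.0693), Star by 2.86 ± 1.26 (0.191), Nr5a1 by 0.79 ± 0.27 (0.0997) and Fshr by 0.64 ± 0.21 (0.093). The adrenal enzymes differed by -0.01 ± 1.78 for Cyp11b1 (adjusted p = 0.997) and 0.03 ± 0.94 for Cyp21a1 (0.99). In 6 of the 8 genes every null pool lay above every wild type pool, which held for 14.9% of all genes. Of the 14 probe sets, 2 were called (4.67% of all probe sets), 8 were separated with the null higher (13.9% of all) and 1, Nr5a1 1421730_at, with the null lower. By gene, 0 of the 8 were separated with the null lower, against 17.3% of all genes. The median difference of the 8 genes was 1.68, against -0.03 over all genes.

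These calls ended when any of several single pools was omitted. Over all 21 alternatives the difference of Hsd3b1 ran from 5.37 to 9.04 and that of Cyp11a1 from 0.0492 to 7.51. When wild type high fat diet pool 1, 2 or 3 was omitted, the adjusted p of Cyp11a1 was 0.057, 0.0596 and 0.0829, whereas omitting null high fat diet pool 2 gave 0.0901 and pool 3 gave 0.098. For Hsd3b1 the same omissions gave 0.0661, 0.092, 0.103, 0.109 and 0.125, and leaving out null casein pool 2 gave 0.0563. Each of the first 5 omissions left 0 of the 8 genes called, with 4 or 5 of them at an unadjusted p below 0.05, and without null high fat diet pool 2 or 3 no gene of all was called (3535 and 3129 at an unadjusted p below 0.05). The call also ended for Hsd3b1 with robust eBayes (0.0514) or without the 3 pools with the most muscle, liver or adrenal markers (wild type casein pool 3, wild type high fat diet pool 2 and null high fat diet pool 1; 7.87, adjusted p = 0.0766). A second quantile normalization lowered Hsd3b1 to 5.37 (0.0362) and Cyp11a1 to 1.68 (0.032). Other omissions added calls: Star without wild type casein pool 3 (2.86, adjusted p = 0.0204), Cyp17a1 without wild type casein pool 1 or null casein pool 1 (0.0481 and 0.0326), and Nr5a1 and Fshr without null high fat diet pool 1 (0.0432 and 0.0286).

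**Figure D3:**
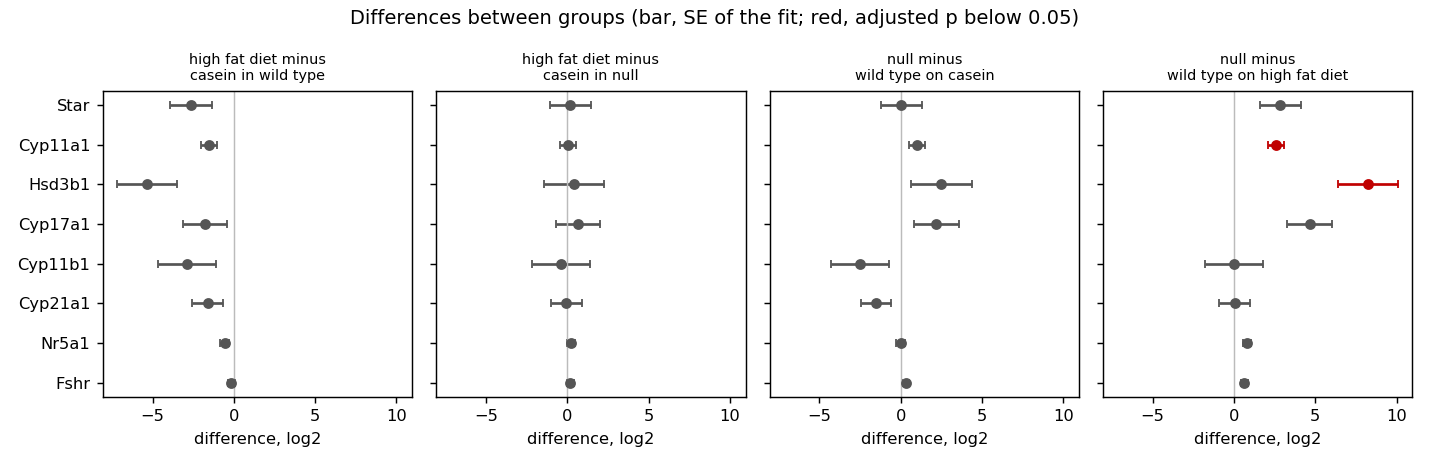
Difference between groups for each of the 8 genes (log2, limma estimate) in 4 comparisons, with bars of 1 SE and red for the called genes. Hsd3b1 and Cyp11a1, at 8.26 and 2.56 for null minus wild type on the high fat diet, are the 2 genes called there, and no gene is called in the other 3 comparisons shown.

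Diet in the wild type came next. All 8 genes were lower on the high fat diet than on casein, with a median difference of -1.70, but none was called by limma, as was true of all genes (0% called; 2 of the 8 and 1384 of all genes had an unadjusted p below 0.05). Hsd3b1 differed by -5.34 ± 1.86 (adjusted p = 0.599) and Cyp11a1 by -1.53 ± 0.48 (0.565). Star differed by -2.64 ± 1.26 (0.67), Cyp17a1 by -1.78 ± 1.37 (0.764) and Nr5a1 by -0.57 ± 0.27 (0.662). Cyp11b1 (-2.87 ± 1.78, adjusted p = 0.724) and Cyp21a1 (-1.61 ± 0.94, 0.715) were lower too, with wild type casein pool 3 as the only high pool, and Fshr differed by -0.15 ± 0.21 (0.873). The outcome rested on wild type casein pool 2: without it Hsd3b1 differed by -8.21 and Cyp11a1 by -2.27, each with an adjusted p of 0.00123.

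In the null, diet made no called difference (0% of all genes; 727 of all genes and 0 of the 8 at an unadjusted p below 0.05). The differences were 0.41 for Hsd3b1, 0.05 for Cyp11a1, 0.18 for Star, 0.67 for Cyp17a1, -0.37 for Cyp11b1, -0.06 for Cyp21a1, 0.22 for Nr5a1 and 0.18 for Fshr. Between the genotypes on casein 0% of genes were called as well (1478 of all genes and 0 of the 8 at an unadjusted p below 0.05). There Cyp11a1 differed by 0.98 ± 0.48 (adjusted p = 0.619), and in 1 of the 8 genes, Cyp11a1, all null pools lay above all wild type pools, against 5.4% of all genes. Without wild type casein pool 2 its difference was 0.238 and that of Hsd3b1 turned to -0.361. Hsd3b1 differed by 2.50 ± 1.86 (0.717), Cyp17a1 by 2.20 (0.673), Fshr by 0.31 (0.7), Star by 0.03 (0.998) and Nr5a1 by 0.00 in size (0.999). Cyp11b1 and Cyp21a1 differed by -2.51 ± 1.78 (0.707) and -1.52 (0.672), and without wild type casein pool 3 Cyp11b1 differed by 0.35.

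Whether diet acted differently in the 2 genotypes was tested as the interaction, and none of the 8 genes was called (0% of all genes; 1113 of all genes and 1 of the 8 at an unadjusted p below 0.05). It was 5.75 ± 2.63 for Hsd3b1, 1.58 ± 0.69 for Cyp11a1, 2.82 for Star and 2.45 for Cyp17a1, with adjusted p of 0.789 to 0.852 over the 8. Without wild type casein pool 2 it was 8.62 for Hsd3b1 and 2.32 for Cyp11a1, each with an adjusted p of 0.0133. The call for genotype on the high fat diet and its absence on casein are therefore not shown to differ.

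Averaged over diets, the null was higher in Hsd3b1 by 5.38 ± 1.31 (adjusted p = 0.0384) and in Cyp11a1 by 1.77 ± 0.34 (0.0215), the 2 of 8 genes called, against 7.52% of all genes. Cyp17a1 (3.43 ± 0.97, adjusted p = 0.0574) and Fshr (0.47 ± 0.15, 0.0786) did not pass, and Star (1.45, 0.34), Nr5a1 (0.39, 0.221), Cyp11b1 (-1.26, 0.566) and Cyp21a1 (-0.74, 0.518) were further from it. Without null casein pool 2 or 3 the adjusted p was 0.0575 and 0.0536 for Cyp11a1 and 0.0894 and 0.0814 for Hsd3b1. Omitting null high fat diet pool 2 or 3 gave 0.0564 and 0.0546 for Cyp11a1 and 0.0842 and 0.0877 for Hsd3b1, so that 0 of the 8 genes were then called by limma, with 4 at an unadjusted p below 0.05. Hsd3b1 alone missed the threshold when null casein pool 1 (0.0528) or any wild type high fat diet pool (0.0574 to 0.0792) was omitted, and 4 genes were called without null high fat diet pool 1. Diet averaged over genotypes called none of the 8 (adjusted p of 0.942 to 0.995) and 0.0055% of all genes, a single gene. That gene belongs to the pathway: Hsd11b1, which regenerates active glucocorticoid in fat and liver, fell by 1.89 on the high fat diet (SE 0.19, adjusted p = 0.0164). It was called in 11 of 20 alternatives, with adjusted p from 0.00449 to 0.279. It missed the threshold without null casein pool 2 (0.0978) or 3 (0.0504), or when wild type high fat diet pool 3 (0.0607) or any null high fat diet pool (0.055 to 0.0728) was omitted, with the pool number as a block (0.141), after a second quantile normalization (0.279) and without the 3 pools named above that hold the most muscle, liver or adrenal markers (0.25).

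**Figure D4:**
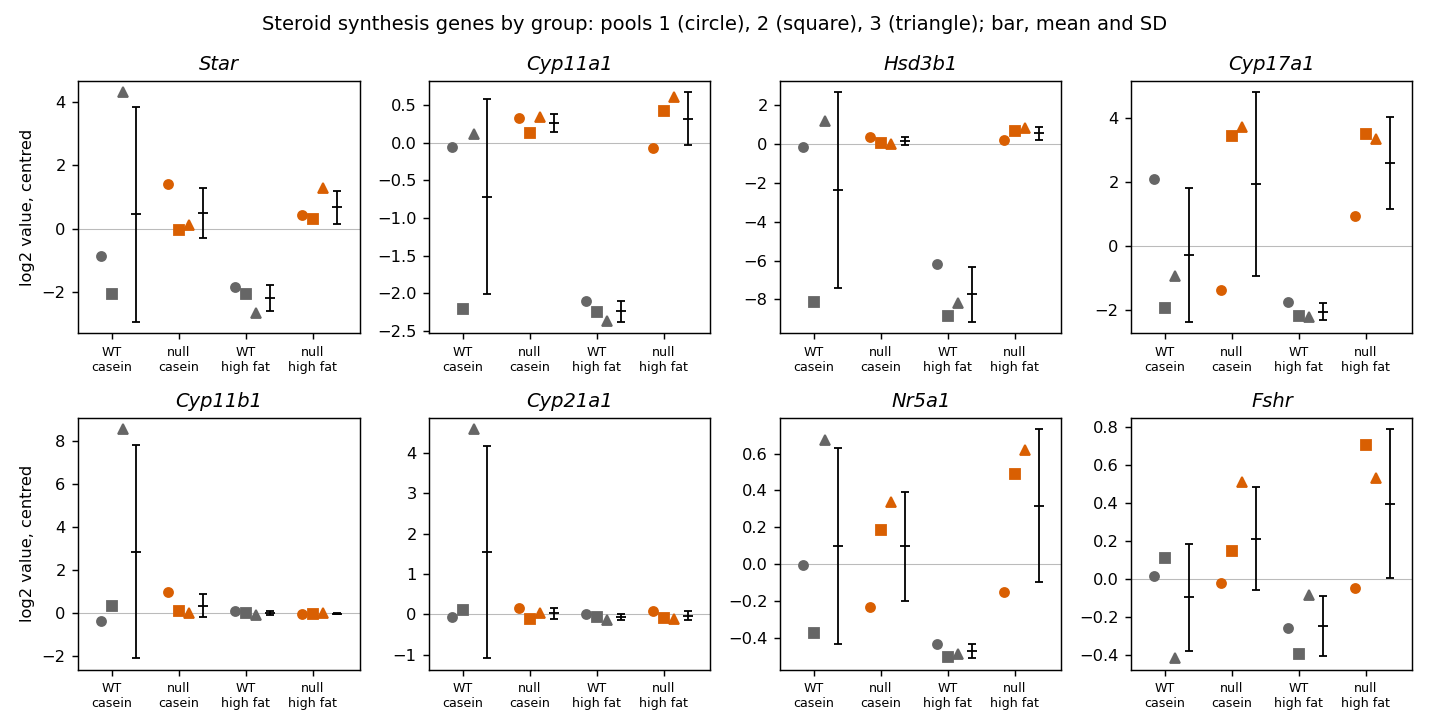
Value of each of the 8 genes (log2, relative, mean of its probe sets) by group, with 1 point per pool (orange null, grey wild type), and a bar for the mean and SD of the 3 pools. The wild type casein group is the widest for Star, Cyp11a1, Hsd3b1, Cyp11b1, Cyp21a1 and Nr5a1. The wild type high fat diet group is low for Hsd3b1 (-7.73 ± 1.40).

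Other genes of steroid synthesis, a list of 54 of which 42 were measured, moved in part. On the high fat diet 8 were called higher in the null (3.21% of all genes) and 0 lower (2.71% of all genes), and the median difference was 0.14. By role these were 0 of 8 cholesterol supply genes, 1 of 3 electron transfer genes, 2 of 13 other steroid enzymes, 0 of 7 receptors and 5 of 11 regulators. Akr1cl, an aldo-keto reductase family gene, rose by 5.40 ± 1.23 (adjusted p = 0.0361) and Hsd17b1, the ovarian enzyme that makes oestradiol from oestrone, by 4.03 ± 0.75 (0.0242). Wt1, a transcription factor of the gonad and the mesothelium, rose by 2.61 ± 0.56 (0.0316). Fdx1, the ferredoxin that passes electrons to Cyp11a1, rose by 2.54 ± 0.31 (0.0112). Over 21 alternatives the calls held in 19 for Fdx1, 16 for Hsd17b1, 15 for Wt1 and 11 for Akr1cl, with the highest adjusted p at 0.0697, 0.0956, 0.118 and 0.126. Averaged over diets 8 genes were called higher in the null and 1 lower, against 4.09% and 3.42% of all genes. The lower one was Mc2r, the receptor for corticotropin, which fell by 1.12 (SE 0.26, adjusted p = 0.0326). It was called in 11 of 20 alternatives (adjusted p from 0.00334 to 0.0844). Which cells its signal came from was not tested.

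These genes shared the low pools of Cyp11a1 in part. Fdx1 read -0.06, -1.48 and -0.07 in the wild type casein pools, 0.06, 0.29 and 0.26 in the null casein pools, and on the high fat diet -1.78, -1.92 and -2.05 in the wild type against 0.36, 0.75 and 0.75 in the null. Its 4 low pools were those of Hsd3b1. Hsd17b1 read 0.46, -2.69 and -2.95 in the wild type casein pools, -0.22, 0.22 and 0.24 in the null casein pools, and on the high fat diet -2.49, -3.00 and -2.90 in the wild type against 0.27, 1.88 and 1.55 in the null. It was low in wild type casein pool 3 too, as Inha was. Of the 42 pathway genes, limma called 0 when null high fat diet pool 2 or 3 was omitted, with 15 and 14 at an unadjusted p below 0.05. It called 1 when wild type high fat diet pool 2 or 3 was omitted, 3 for wild type high fat diet pool 1 or null casein pool 2, and 5 for null casein pool 3. With the pool number as a block 4 were called.

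Cell type markers moved with the genotype on the high fat diet beside these genes. Some genes are in both kinds of list, so the counts are not independent. Foxl2 and Nr5a2 are listed as regulators and granulosa markers, and Akr1c18 as a steroid enzyme and a theca and luteal marker. Mc2r, Mrap and Cyp11b2 are pathway genes and adrenal cortex markers, and Lipe is a cholesterol supply gene and an adipocyte marker. Called higher in the null, against 3.21% of all genes, were 6 of 8 granulosa markers, among them Inha by 6.79 ± 1.32 (adjusted p = 0.0261), 2 of 3 theca and luteal markers and 4 of 10 oocyte markers. Of the 6 oviduct and uterus markers 0 were called by limma, with 5 at an unadjusted p below 0.05. Their median difference of 3.13 was above the 1.52 of the granulosa list, and all 6 were positive. Of these 6, 5 were separated with the null higher, against 14.9% of all genes. None of 3 adrenal cortex, 6 adrenal medulla, 7 kidney, 7 liver and 7 muscle markers was called, and 2 of 8 adipocyte markers were called lower (2.71% of all genes). When any wild type high fat diet pool, or null high fat diet pool 2 or 3, was omitted, the granulosa, theca and oocyte counts were 0 by limma, with all 8 granulosa markers still at an unadjusted p below 0.05 and Inha at an adjusted p of 0.0587 to 0.098. Omitting null casein pool 2 gave 2 granulosa, 1 theca and 2 oocyte markers, and null casein pool 3 gave 3 granulosa markers. The oocyte count was 7 without wild type casein pool 1 and 6 when null high fat diet pool 1 was omitted, and 4 oviduct and uterus markers were called without wild type casein pool 1. The adipocyte count was 1 when pool 1 or 2 of the wild type on the high fat diet was omitted, and 0 when pool 3 of that group or null high fat diet pool 2 or 3 was. The part of these cells in the Hsd3b1 and Cyp11a1 differences was not tested.

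Adrenal genes outside the 10 followed wild type casein pool 3 in part. Of the 3 measured adrenal cortex markers, Cyp11b2, the aldosterone synthase, read 2.84 there and -0.35 to 0.21 in the other 11 pools. Mc2r read 1.37 there, with 0.82 in wild type high fat diet pool 3. Mrap, the accessory protein of that receptor, read 0.17 there and was higher in wild type high fat diet pool 1 (0.51). The medulla marker Slc18a1, a monoamine transporter, was at 0.19 there and at 0.20 in null casein pool 3. By the smallest mean absolute difference over the 12 pools, the 4 genes most like Cyp11b1 were Chgb (0.227), Scg2 (0.281), Akr1d1 (0.405) and Chga (0.448). Chgb, Scg2 and Chga encode granins of the adrenal medulla and other neuroendocrine cells, and Akr1d1 is a bile acid and steroid reductase of liver. In wild type casein pool 3 they read 8.17, 7.0, 5.67 and 6.24, in the order Chgb, Scg2, Chga and Akr1d1.

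By the same measure, the genes most like Cyp11a1 were Igfbp2 (0.199), Wnt4 (0.252), Fdx1 (0.276) and Lama1 (0.325), on the scale of the mean of its probe sets. Those most like Hsd3b1 were Mgarp (1.06), Hao2 (1.13), Akr1cl (1.26) and Speer4cos (1.60). The measure compares centred values of genes read on the same 12 arrays, so it describes likeness of pattern in these pools only.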

How the data were processed

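Total RNA (8 µg) of 12 pools was hybridised to Affymetrix arrays. GCOS and RMA were used, per the submitters' processing notes, with no version or setting given. The deposited values are log2 values in which the authors' table has each of 45101 probe sets centred on its median (0 depart from it by more than 1e-06). The base was not stated and was taken as 2, as RMA gives it. The genome build was not given in the sources used here.

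Probe sets naming several genes (932) or none (9211) were left out. Of the other 34958, 34754 were matched to RefSeq symbols by gene identifier. A gene's value is the mean of its probe sets. The 4 group means were fitted on all arrays with limma 3.58.1 (R 4.3.3; 8 residual and 2.5 prior degrees of freedom), with Benjamini-Hochberg adjustment over 18194 genes and a threshold of 0.05. A fold is 2 to the power of the log2 difference. The spread is shared by all groups. The fit was tested on simulated data. Alternatives were other choices of probe set, normalization, weights, filters, pools and a replicate block.

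The 10 genes and all lists were chosen with earlier results of these data known. Pathway genes named are at most the 4 largest called changes each way per comparison, and the 4 genes nearest Cyp11a1, Hsd3b1 and Cyp11b1 are named. Inha, Cyp11b2, Mrap, Slc18a1, Kap, Umod and the Fdx1 and Hsd17b1 pool values were chosen after values were seen. For arrays, their number limits the precision.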

Additional observations from a re-analysis of the deposited data

How the results depend on the processing

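Of the 8 genes, 2 were called between genotypes on the high fat diet and 2 for genotype averaged over diets. Where a gene was represented by its probe set of highest mean, the counts were 1 and 1, but this choice says nothing about stability: on centred values a mean is low where pools are low, so the rule passes over Cyp11a1 1448804_at (mean -1.80) for the flat 1439947_at (0.02). The counts were 6 and 5 with array quality weights, and 1 and 1 with robust eBayes. The estimation of the array weights stopped with a convergence warning, so all results with these weights are uncertain. Fitting only the arrays of the groups compared, which was run for the comparisons of a single pair of groups, gave 4 on the high fat diet. Leaving out each pool in turn gave 0 to 4 for both, and 0 to 2 for diet in the wild type, for the interaction and for diet averaged over genotypes, which were 0 with all pools. The pool numbers were not taken to pair the arrays, since deviations of same-numbered pools correlated between -0.61 and 0.59. Between null on casein and null on the high fat diet they correlated at 0.55 for pool 1 and 0.59 for pool 3 but -0.01 for pool 2, and the liver marker medians were alike (0.97, 0.19 and -1.25 against 1.01, 0.23 and -1.31), so a link between those pools was not settled. With the pool number as a replicate block 2 genes were still called on the high fat diet, Cyp11a1 with an adjusted p of 0.0423 and Hsd3b1 with 0.0454, while calls over all genes went from 1077 to 542. Over all genes, array weights called 5120 and the highest mean 732 on the high fat diet. The cause of the other changes was not tested. Expression levels are lost by the centring, so how near the low pools or the flat probe sets lie to background cannot be assessed. The size of the folds may depend on it.

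All differences whose sign changed were uncalled in the reported fit, apart from Cyp11a1 for genotype averaged over diets. Under that same choice of probe set, Star (-0.489) and Cyp11a1 (-0.0563) between genotypes on casein changed sign, as did Nr5a1 (0.21, also with the widest range), Cyp11a1 for diet in the null (-0.244), Cyp21a1 between genotypes on the high fat diet (-0.0713, also with the widest range) and Cyp11a1 for genotype averaged over diets (-0.00351). Quantile normalization did so for diet in the null in Star (-0.118) and Cyp11a1 (-0.0852), for Nr5a1 between genotypes on casein (0.0539) and for diet averaged in Fshr (-0.0276). Array weights did so on casein in Star (-0.692) and Nr5a1 (0.00523), and on the high fat diet in Cyp21a1 (-0.0183). Without the 3 pools that stand apart, Cyp11b1 was 0.35 between genotypes on casein, 0.00184 on the high fat diet, -0.348 as the interaction and 0.176 for genotype averaged. Cyp21a1 was then -0.0366 on the high fat diet and -0.0361 as the interaction, and Nr5a1 was 0.287 between genotypes on casein and 0.0948 for diet averaged.

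Leaving out each pool in turn also changed signs. For diet in the null the differences ran from -0.121 to 0.638 in Star, -0.0903 to 0.248 in Cyp11a1, -0.988 to 1.57 in Cyp17a1 and -0.136 to 0.00405 in Cyp21a1. Between genotypes on casein they ran from -1.22 to 1.96 in Star, -0.361 to 4.26 in Hsd3b1, -4.11 to 0.35 in Cyp11b1 and -0.239 to 0.287 in Nr5a1. On the high fat diet they ran from -0.0587 to 0.035 in Cyp11b1 and -0.0342 to 0.0678 in Cyp21a1. The interaction of Cyp11b1 ran from -0.362 to 4.10, and genotype averaged from -2.06 to 0.169 in Cyp11b1 and -1.15 to 0.0142 in Cyp21a1. Diet averaged ran from -1.39 to 0.0304 in Cyp17a1 and -0.0631 to 0.127 in Fshr.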

Other observations

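A probe set whose annotation names several Hsd3b family genes, and which was left out of the gene values, read 2.17 in wild type casein pool 3 and -0.20 to 0.13 in the other 11 pools. Hsd3b1 itself read 1.14 in that pool. Another such probe set, whose annotation names an Hsd3b gene among several, read -0.08 in that pool, 1.51 in null casein pool 3 and 0.94 in null high fat diet pool 3.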
